A study of Caenorhabditis elegans with 11 samples.

Results

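The comparison described here is that of total RNA from whole adult *Caenorhabditis elegans* with *xpo-1* silenced against total RNA from control animals. Its members are the genes with at least 10 counts in at least 2 of the 4 total RNA libraries, 13795 of the 46756 genes in the count tables. The animals were wild-type N2 (Bristol) grown at 20°C and moved on day 1 of adulthood to bacteria of the strain *E. coli* HT115. For the *xpo-1* RNAi group (2 libraries) the bacteria made double-stranded RNA against *xpo-1*, and for the control group (2 libraries) they carried the empty vector L4440. Both groups were kept on these bacteria for 96 hours with daily transfers, were collected on day 5, and differed in no other agent or allele. Polyadenylated RNA was sequenced, and a level is given below as CPM, a gene's counts relative to the TMM-scaled library size, which lines up the bulk of the genes between libraries. A gene is said to be called, or to have risen or fallen, where the edgeR quasi-likelihood test gave an adjusted p below 0.05 with a change of more than 1.5-fold.

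Exportin 1, the product of *xpo-1*, binds proteins that carry a nuclear export signal and moves them through the nuclear pore with the help of the small GTPase Ran. Its cargoes include transcription factors, kinases, cell cycle proteins and ribosomal particles, so its loss can reach the transcripts of many tissues. Double-stranded RNA taken up from food acts in most somatic tissues and in the germ line of the nematode, and less well in neurons. A day 5 hermaphrodite holds intestine, body wall muscle, epidermis, pharynx, neurons, somatic gonad and a germ line with oocytes and embryos, and all of them contribute to total RNA. A lower level can therefore mean fewer cells of a type or less RNA per cell, and these cannot be told apart in bulk RNA.

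Coordinates are on WBcel235, as in the count tables. Library totals lay between 18356260 and 21828657 counts. The 2 controls differed more than the silenced libraries did, and the log2 ratio of the 2 controls had a standard deviation over genes of 0.517 against 0.283 for the 2 *xpo-1* RNAi libraries. The labels call the libraries replicates of a group, and p-values measure the spread between them. *xpo-1* itself had 294 and 242 CPM in the control libraries and 34.1 and 35.9 CPM under *xpo-1* RNAi (log2 fold change -2.94, SE 0.18, adjusted p 6.91e-05), so both silenced libraries lay below both controls. Markers of the main tissues were detected in every library, with *vit-2* and *vit-6* for intestine, *unc-54* for body wall muscle, *rme-2* for oocytes and *gld-1* for germ line each at 8600 counts or more. The neuronal markers *unc-17* and *rab-3* had 23 to 124 counts per library, and *egl-21* had 756 to 1543. Embryonic markers were low and differed in direction. *pes-10* had 54 and 67 counts in the controls and 6 and 17 under RNAi. *end-3* had 10 and 3 counts in the controls and 21 and 21 under RNAi, and *end-1* had 3 to 8 counts per library.

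Of the 13795 genes, 1649 (12%) were called higher and 2337 (16.9%) lower under *xpo-1* RNAi, or 28.9% in all. The control spread was unevenly placed among them. In 9686 genes the 2 controls were under 1.4-fold apart, and of these 1222 (12.6%) were called higher and 1179 (12.2%) lower. In the other 4109 genes the controls were 1.4-fold apart or more, and 427 (10.4%) were called higher and 1158 (28.2%) lower. The excess of lower over higher calls thus lay among genes on which the controls differed. In 3214 of those 4109 genes control replicate 2 was the higher control, and 1119 of these genes were called lower and 145 higher. In the 895 genes in which it was the lower control, 39 were called lower and 282 higher. The standard deviation of the log2 fold change was 0.772 in genes with like controls and 2.17 in the rest, whose median control level was 2.50 CPM against 21.5 CPM. At the limit itself lay T15B12.1, with controls 1.3996-fold apart, and Y54G11A.7, with controls 1.4001-fold apart, and neither was called. At the count filter, 215 genes entered with 10 counts as their second-highest and 257 stayed out with 9.

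**Figure D1:**
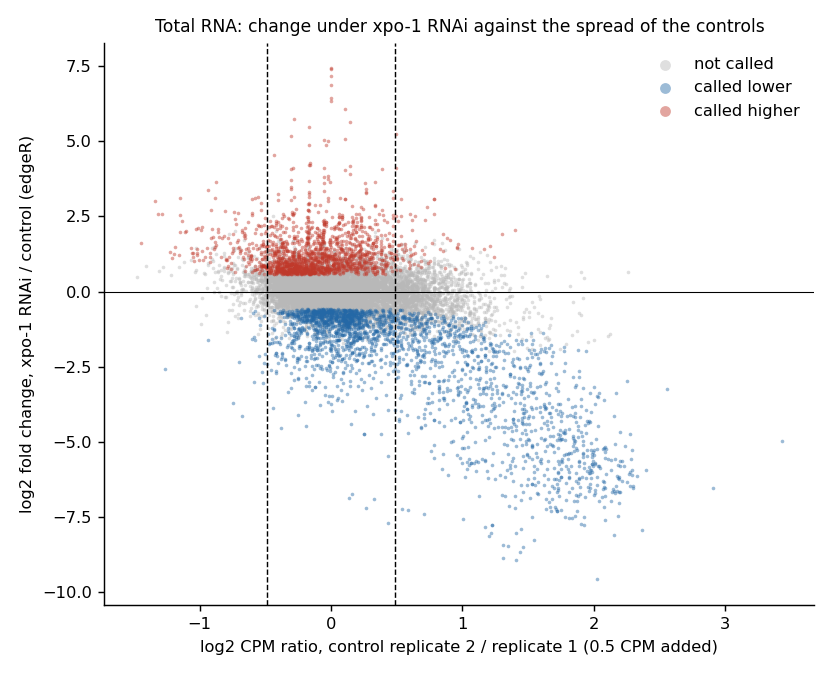
Each point is a gene of total RNA, with the log2 CPM ratio of the 2 control replicates on the horizontal axis (0.5 CPM added to both) and the edgeR log2 fold change of *xpo-1* RNAi over control on the vertical axis, coloured by call. Dashed lines mark a 1.4-fold difference of the controls without regard to sign, and the long tail of falls lies to the right, where control replicate 2 was the higher control.

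The genes with like controls gave smaller changes. Among them 579 rises and 621 falls were over 2-fold, and 88 and 158 over 4-fold, against 946 and 1707, and 250 and 970, in all genes. The groups did not overlap in 71.7% of these genes and in 68.9% of all genes. Cuticle and molting genes, sperm genes and ribosomal proteins, set aside below, made up 499 of the genes tested and 343 of the lower calls. With scaling by total counts alone, 3309 genes were called higher and 1649 lower, 66.7% of calls higher against 41.4% here, and the median of all genes was 0.30 in place of 0.01. Medians given below are to be read against the median of all genes, and those slightly under 0 turn positive with that scaling. Leaving out 1 library at a time gave 379 to 2129 higher and 977 to 2597 lower calls, with the fewest of both without *xpo-1* RNAi replicate 2 and the most without control replicate 1. In these fits the lone library of a group is assumed to vary like the other group. Calls made in the full fit and in each of the 4 reduced fits numbered 313 higher and 553 lower. Where a gene named below was not called in a reduced fit, its log2 fold change and adjusted p without that library stand beside it, and where a list's count of 5 or more moved by over 1.5 times, the paragraph on the list gives the count.

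Genes were grouped in 80 lists of gene families and tissues outside those set aside, and not all lists are described below. For most lists described, the text gives the numbers of members tested and called, and for many also the median log2 fold change. These values are to be read against 12% higher, 16.9% lower and a median of 0.01 over all genes. Lists not described include *pals* genes, galectins, globins, glycolysis, aminoacyl-tRNA synthetases and potassium channels. Medians were highest among the plotted lists for lipases (1.02) and for infection, DAF-16 and diet genes (0.97). They were lowest for body wall muscle (-0.75), basement membrane (-0.69) and nuclear respiratory chain genes (-0.64).

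**Figure D2:**
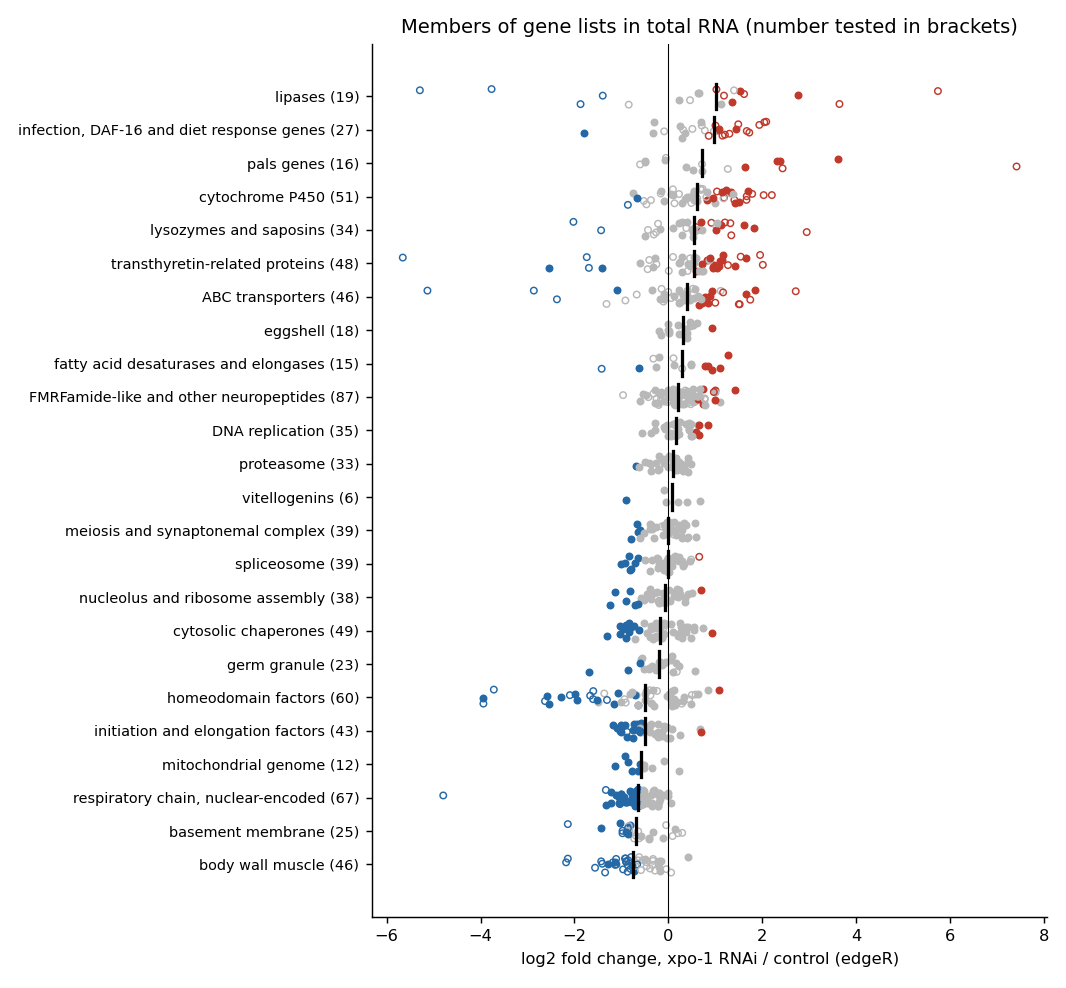
Log2 fold change (*xpo-1* RNAi over control, edgeR) of every tested member of 24 gene lists, ordered by the list median (black bar), with red for called higher, blue for called lower and grey for not called. Filled points have controls under 1.4-fold apart and open points 1.4-fold or more. Genes with no count in a group lie at fitted values that depend on the small count edgeR adds. Lipases (median 1.02) and cytochrome P450 genes (0.62) are near the top, and body wall muscle genes (-0.75) are at the bottom.

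Some genes of the methionine cycle fell, most of them from controls that differed. This cycle makes S-adenosylmethionine, the methyl donor for phosphatidylcholine, histones and RNA. Of 18 listed genes, 6 fell and 1 rose (median -0.20). Of the 12 with like controls 2 fell and 1 rose (median -0.03), against 12.2% falls over all genes with like controls. *sams-3* (WBGene00015538, chromosome IV, 5848657 to 5850845), an S-adenosylmethionine synthetase, had 117 and 117 CPM in the control libraries and 31.7 and 30.9 CPM under *xpo-1* RNAi (log2 fold change -1.90, SE 0.16, adjusted p 8.27e-05). The controls were nearly equal, and the mean of the silenced libraries was 26.7% of theirs. Exons of *sams-3* overlap those of C06E7.4. *sams-1* (WBGene00008205, chromosome X, 11965962 to 11969784), the synthetase that supplies phosphatidylcholine synthesis, had 132 and 234 CPM in the control libraries and 18.4 and 22.6 CPM under *xpo-1* RNAi (log2 fold change -3.15, SE 0.27, adjusted p 8.27e-05). Here the controls were 1.77-fold apart, and the gap to the silenced libraries was wider than that. *sams-5* fell by 3.20 on the log2 scale from controls 2.27-fold apart, while *sams-4* was at 104 and 109 CPM in the controls and 79.2 and 73.2 CPM under RNAi and missed the fold limit (log2 fold change -0.48, SE 0.16, adjusted p 0.0401).

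Downstream of the synthetases, *ahcy-1*, which clears S-adenosylhomocysteine, went from 2050 and 2666 to 1272 and 952 CPM (log2 fold change -1.08, SE 0.23, adjusted p 0.00627, not called without *xpo-1* RNAi replicate 2, with -0.89 and p 0.0548). Of the phosphoethanolamine methyltransferases, *pmt-2* went from 239 and 371 to 124 and 119 CPM (log2 fold change -1.33, SE 0.22, adjusted p 0.00159). The other, *pmt-1*, missed the fold limit, at 180.5 and 193 CPM against 272 and 274 CPM (log2 fold change 0.55, SE 0.16, adjusted p 0.027). *metr-1*, the methionine synthase that uses vitamin B12, had a log2 fold change of 0.0015 (SE 0.16). *cbs-1*, which takes homocysteine towards cysteine, was the list's only rise (log2 fold change 0.63, SE 0.21, adjusted p 0.0452, not called without control replicate 1, *xpo-1* RNAi replicate 1 or *xpo-1* RNAi replicate 2, with 0.57 to 0.63 and p 0.0326 to 0.28). *nhr-114* (WBGene00003704, chromosome V, 4187185 to 4190008), a nuclear hormone receptor of the intestine and germ line tied to the dietary supply of methionine, had 68.8 and 115 CPM in the control libraries and 6.64 and 9.04 CPM under *xpo-1* RNAi (log2 fold change -3.54, SE 0.28, adjusted p 6.99e-05). Its mean level under RNAi was 8.54% of the control mean, from controls 1.67-fold apart.

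The propionate shunt, a route that breaks down propionyl-CoA without vitamin B12, fell in 4 of its 5 genes. It was listed after the values of its genes had been seen. *acdh-1* (WBGene00016943, chromosome I, 6497436 to 6499560), which catalyses its first step, had 341 and 510.2 CPM in the control libraries and 78.4 and 80.7 CPM under *xpo-1* RNAi (log2 fold change -2.42, SE 0.22, adjusted p 0.000106). *hach-1*, a hydrolase of the same route, went from 322 and 372 to 139 and 131 CPM (log2 fold change -1.36, SE 0.17, adjusted p 0.000427). In both genes the 2 silenced libraries lay close together and well below the controls. *hphd-1* went from 302 and 439 to 108 and 95 CPM (log2 fold change -1.87, SE 0.21, adjusted p 0.000285). *ech-6* went from 423 and 606 to 206 and 168 CPM (log2 fold change -1.46, SE 0.21, adjusted p 0.00101). *alh-8*, the last step, was at 1126 and 1387 CPM in the controls and 929.8 and 847 CPM under RNAi and was not called (log2 fold change -0.50, SE 0.20, adjusted p 0.0782). The controls of *acdh-1*, *ech-6* and *hphd-1* were 1.43-fold to 1.5-fold apart, with replicate 2 higher, and all 4 falls were called in each reduced fit. The related gene *acdh-2* fell by 3.54 on the log2 scale.

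No gene of the route that does use vitamin B12 was called lower. Of its 6 genes *mmcm-1*, the methylmalonyl-CoA mutase, rose from 121 and 114 to 183 and 205 CPM (log2 fold change 0.72, SE 0.16, adjusted p 0.00785, not called without *xpo-1* RNAi replicate 2, with 0.64 and p 0.0716), and the other 5 were not called, among them *pcca-1* (log2 fold change -0.01, SE 0.16, adjusted p 0.978). Of the receptors known to drive the shunt, *nhr-10* rose from 6.12 and 5.8 to 8.94 and 12.3 CPM (log2 fold change 0.83, SE 0.26, adjusted p 0.0346, not called without *xpo-1* RNAi replicate 1 or *xpo-1* RNAi replicate 2, with 0.59 to 1.04 and p 0.101 to 0.415), and *nhr-68* was at 11.9 and 16.3 CPM against 8.79 and 11.8 CPM (log2 fold change -0.45, SE 0.26, adjusted p 0.204). Values of the methionine and propionate genes in each library are plotted with those of lipid enzymes and linker histones.

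**Figure D3:**
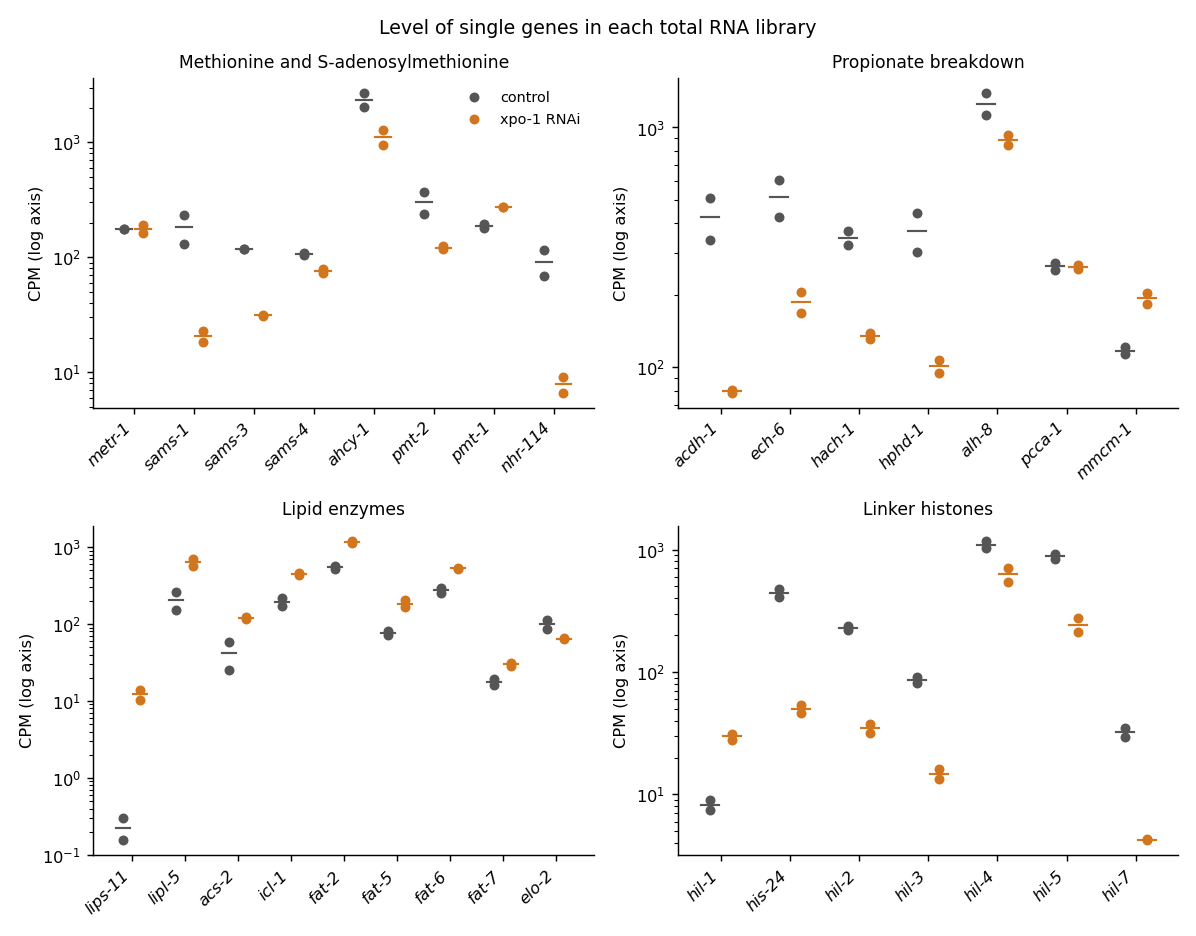
CPM in each total RNA library on a log axis, grey for the 2 control libraries and orange for the 2 *xpo-1* RNAi libraries, with a bar at the mean of each group. Grey and orange do not overlap except in *metr-1* and *pcca-1*, and *hil-1* is the only linker histone whose orange points lie above the grey.

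Lipid genes moved in both directions, with rises among lipases, desaturases and acyl-CoA synthetases. Lipases free fatty acids from stored fat, and of 19 tested 8 rose and 4 fell (median 1.02). *lips-11* (WBGene00020472, chromosome II, 1108841 to 1110992), a lipase-related gene, had 5 and 3 counts in the controls and 274 and 251 counts under RNAi (log2 fold change 5.74, SE 0.42, adjusted p 6.91e-05, not tested without either *xpo-1* RNAi library, since it then missed the count filter), so that it was near the detection floor in the controls and above 10 CPM in both silenced libraries. *lipl-5*, a lysosomal lipase, went from 153 and 262 to 695 and 574 CPM (log2 fold change 1.61, SE 0.25, adjusted p 0.00133). *lips-15* went from 24.3 and 18.2 to 51.4 and 56.4 CPM (log2 fold change 1.35, SE 0.20, adjusted p 0.001). Without control replicate 2, 8 of 16 lipases rose and none fell. For lipases, rises numbered 4 without *xpo-1* RNAi replicate 1 and 3 without *xpo-1* RNAi replicate 2.

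Fatty acid desaturases put double bonds into fatty acids, and 5 of the 7 *fat* genes rose, all with controls under 1.4-fold apart. *fat-2*, the enzyme that makes linoleic acid, went from 571 and 517 to 1147 and 1196 CPM (log2 fold change 1.11, SE 0.18, adjusted p 0.00178). *fat-5*, which acts on palmitate, went from 80.9 and 72.7 to 204 and 164 CPM (log2 fold change 1.26, SE 0.17, adjusted p 0.000737). The stearoyl-CoA desaturases *fat-6* and *fat-7*, which are close copies of each other, rose as well. *fat-6* went from 257 and 298 to 537 and 519.7 CPM (log2 fold change 0.93, SE 0.17, adjusted p 0.00342). *fat-7* went from 19.2 and 16 to 31.3 and 28.8 CPM (log2 fold change 0.77, SE 0.20, adjusted p 0.0145, not called without *xpo-1* RNAi replicate 1 or *xpo-1* RNAi replicate 2, with 0.71 to 0.84 and p 0.098 to 0.141). In each of these 4 genes both silenced libraries exceeded both controls. The elongase *elo-2* fell from 86 and 113 to 65.7 and 63.3 CPM (log2 fold change -0.62, SE 0.18, adjusted p 0.024, not called without control replicate 2, *xpo-1* RNAi replicate 1 or *xpo-1* RNAi replicate 2, with -0.66 to -0.45 and p 0.0591 to 0.156). For *fat* genes, rises numbered 3 without *xpo-1* RNAi replicate 2.

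Among 57 genes of fatty acid oxidation 14 rose and 13 fell. *acs-2*, an acyl-CoA synthetase known to rise in fasting, went from 25.2 and 58.9 to 116 and 125 CPM (log2 fold change 1.52, SE 0.31, adjusted p 0.00526), with controls 2.33-fold apart and both silenced libraries above them. *hacd-1*, a dehydrogenase of beta-oxidation, rose from 101 and 125 to 205 and 184 CPM (log2 fold change 0.78, SE 0.17, adjusted p 0.00782, not called without *xpo-1* RNAi replicate 1, with 0.69 and p 0.053). The falls of this list lay largely in the acyl-CoA dehydrogenases, of which 8 of 13 *acdh* genes fell and none rose, *acdh-1* and *acdh-2* among them. Of the 7 *acdh* genes with like controls 2 fell. *icl-1*, which carries the glyoxylate cycle and lets fat be turned into sugar, went from 173 and 216 to 437 and 455 CPM (log2 fold change 1.2, SE 0.18, adjusted p 0.00113). It was the only gene of 28 in the TCA and glyoxylate list to rise, against 5 falls. For fatty acid oxidation genes, rises numbered 6 without *xpo-1* RNAi replicate 1 and 4 without *xpo-1* RNAi replicate 2. For fatty acid oxidation genes, falls numbered 8 without *xpo-1* RNAi replicate 2. For TCA and glyoxylate genes, falls numbered 12 without control replicate 1 and 1 without *xpo-1* RNAi replicate 2. For *acdh* genes, falls numbered 5 with any 1 library left out.

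Carriers of fatty acids rose in 6 and fell in 3 of 17 tested. Of 8 *far* genes 5 rose and none fell, and of 9 *lbp* genes 1 rose and 3 fell. The rises included *far-6* (from 51.2 and 46.3 to 89.3 and 101 CPM, log2 fold change 0.96, SE 0.16, adjusted p 0.00206) and *far-3*, which shares exons with *far-5* (from 46.6 and 22.8 to 89.4 and 77.8 CPM, log2 fold change 1.27, SE 0.28, adjusted p 0.00754), both fatty acid and retinol binding proteins. *lbp-9* went from 983 and 853 to 457 and 309 CPM (log2 fold change -1.26, SE 0.22, adjusted p 0.00241). *lbp-1* went from 75.4 and 75.8 to 36.4 and 31.9 CPM (log2 fold change -1.15, SE 0.17, adjusted p 0.000976). The groups did not overlap in any of these 4 genes. *dhs-25*, a short-chain dehydrogenase, fell by 2.89 on the log2 scale, and *pmp-5*, of the peroxisomal ABC transporters, by 2.37, both from controls over 1.4-fold apart. For lipid-binding proteins, rises numbered 3 without *xpo-1* RNAi replicate 2.

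Intestinal genes did not move as a block. Vitellogenins, the yolk proteins made by the intestine, were among the most abundant transcripts, and 1 of 6 was called. *vit-1* went from 1149 and 1347 to 704 and 640.3 CPM (log2 fold change -0.89, SE 0.19, adjusted p 0.00641, not called without *xpo-1* RNAi replicate 2, with -0.82 and p 0.0518). *vit-2* was at 9645 and 9072 CPM in the controls and 12860 and 11920 CPM under RNAi (log2 fold change 0.40, SE 0.24, adjusted p 0.218), *vit-5* at 7177 and 5399 CPM against 10810 and 9322 CPM (log2 fold change 0.68, SE 0.25, adjusted p 0.0625) and *vit-6* at 7011 and 6650 CPM against 8354 and 7390 CPM (log2 fold change 0.20, SE 0.23, adjusted p 0.53). The genes *vit-3*, *vit-4* and *vit-5* are near-identical, and reads may be split among them.

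Digestive and antimicrobial enzymes of the gut rose more often than they fell. Of 34 lysozymes and saposin-like proteins 11 rose and 2 fell (median 0.55). *spp-14*, saposin-like, went from 566 and 437 to 1242 and 924 CPM (log2 fold change 1.11, SE 0.22, adjusted p 0.00427). The lysozyme *lys-8* went from 258 and 231 to 438 and 359.9 CPM (log2 fold change 0.71, SE 0.18, adjusted p 0.0143, not called without control replicate 2 or *xpo-1* RNAi replicate 1, with 0.55 to 0.59 and p 0.056 to 0.107). *lys-7*, another lysozyme, had controls 2.23-fold apart, at 699.9 and 314 CPM, and 1209 and 1130 CPM under RNAi (log2 fold change 1.21, SE 0.31, adjusted p 0.0161, not called without control replicate 2 or *xpo-1* RNAi replicate 2, with 0.71 to 1.26 and p 0.055 to 0.0938). Gut proteases were divided, with 5 rises and 4 falls among 23. The cathepsin D-like protease *asp-4* went from 294 and 273 to 529.7 and 502 CPM (log2 fold change 0.87, SE 0.17, adjusted p 0.00416). *cpz-2*, cathepsin Z-like, went from 37.2 and 38.8 to 77.8 and 79.5 CPM (log2 fold change 1.05, SE 0.16, adjusted p 0.00123), whereas the more abundant *asp-1* went from 2873 and 3999 to 2109 and 1752 CPM (log2 fold change -0.83, SE 0.24, adjusted p 0.0232, not called without control replicate 2 or *xpo-1* RNAi replicate 2, with -0.70 to -0.61 and p 0.129 to 0.237). *cpr-5*, cathepsin B-like, went from 1099 and 1300 to 853 and 688 CPM (log2 fold change -0.64, SE 0.20, adjusted p 0.0359, not called without control replicate 2 or *xpo-1* RNAi replicate 2, with -0.55 to -0.49 and p 0.169 to 0.208). None of the 4 falls remained without control replicate 2, where 6 of 23 proteases rose. For lysozymes and saposins, rises numbered 5 without *xpo-1* RNAi replicate 1 and 3 without *xpo-1* RNAi replicate 2. For gut proteases, rises numbered 3 without *xpo-1* RNAi replicate 1 and 2 without *xpo-1* RNAi replicate 2.

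Structural genes of the gut fell in 8 of 18 (median -0.60), and in 1 of the 7 with like controls, where 1 rose. Without control replicate 2 the median was -0.14. *act-5*, the actin of microvilli, went from 368 and 723 to 210.3 and 193 CPM (log2 fold change -1.44, SE 0.28, adjusted p 0.00381). *ifb-2*, an intermediate filament of the gut terminal web, went from 53 and 110 to 38.3 and 42 CPM (log2 fold change -1.02, SE 0.28, adjusted p 0.0213, not called without control replicate 2, *xpo-1* RNAi replicate 1 or *xpo-1* RNAi replicate 2, with -1.09 to -0.43 and p 0.072 to 0.108). *ges-1*, the gut esterase, had like controls and rose (from 15.9 and 17.9 to 33.7 and 38.7 CPM, log2 fold change 1.09, SE 0.19, adjusted p 0.00241, not called without *xpo-1* RNAi replicate 2, with 0.99 and p 0.0557). For gut structure genes, falls numbered 4 without control replicate 2, 3 without *xpo-1* RNAi replicate 1 and 3 without *xpo-1* RNAi replicate 2.

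Nuclear genes of the respiratory chain fell in 35 of 67 and rose in none (median -0.64), and 30 of 62 among those with like controls. Both silenced libraries lay below both controls in 59 of the 67. Of the 14 *cox* genes, which encode subunits and assembly factors of cytochrome c oxidase, 11 fell, among them *cox-17*, a copper chaperone, which went from 41.1 and 40.7 to 18.8 and 14 CPM (log2 fold change -1.32, SE 0.20, adjusted p 0.00129). *nduv-3*, of complex I, went from 144 and 167 to 78 and 55.1 CPM (log2 fold change -1.22, SE 0.20, adjusted p 0.00155). *asg-2*, of ATP synthase, went from 134 and 196 to 70.6 and 60.4 CPM (log2 fold change -1.33, SE 0.21, adjusted p 0.00127). The summed level of the list was 23300 and 26050 CPM in the controls and 16680 and 13950 CPM under RNAi. For nuclear respiratory chain genes, falls numbered 16 without *xpo-1* RNAi replicate 2. For *cox* genes, falls numbered 2 without *xpo-1* RNAi replicate 2.

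Transcripts of the mitochondrial genome fell in part. Of the 12 tested, 6 fell (median -0.59) and none rose. *ND1*, a subunit of complex I, went from 505 and 520.4 to 356 and 302 CPM (log2 fold change -0.64, SE 0.18, adjusted p 0.0203, not called without *xpo-1* RNAi replicate 2, with -0.52 and p 0.152). *COX3*, a subunit of cytochrome c oxidase, was at 1105 and 1055 CPM in the controls and 1302 and 1232 CPM under RNAi (log2 fold change 0.23, SE 0.19, adjusted p 0.376). Both silenced libraries lay below both controls in 11 of the 12 transcripts, and above both controls in 1, *COX3*. Reads of this genome depend on how far its transcripts are polyadenylated. For mitochondrial genome transcripts, falls numbered 1 without *xpo-1* RNAi replicate 2.

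Other mitochondrial genes were lower too. *mdh-2*, the mitochondrial malate dehydrogenase, went from 755 and 881 to 403 and 317 CPM (log2 fold change -1.19, SE 0.20, adjusted p 0.00178). *ant-1.1*, which exchanges ATP for ADP across the inner membrane and is among the most abundant genes here, went from 5236 and 5590 to 2931 and 2513 CPM (log2 fold change -0.99, SE 0.22, adjusted p 0.00733, not called without control replicate 2, with -0.98 and p 0.0746). *hsp-60* (WBGene00002025, chromosome III, 1619742 to 1625797), the mitochondrial chaperonin and a common reporter of mitochondrial stress, had 447 and 526 CPM in the control libraries and 98.8 and 91.3 CPM under *xpo-1* RNAi (log2 fold change -2.36, SE 0.18, adjusted p 6.91e-05). Its mean under RNAi was 19.5% of the control mean, and the groups did not overlap. *hsp-6*, its partner in such reporters, was at 658 and 709.8 CPM in the controls and 449 and 467 CPM under RNAi and missed the fold limit (log2 fold change -0.58, SE 0.17, adjusted p 0.0298). The mitochondrial protease *spg-7* fell from 57 and 57.4 to 33.6 and 35.9 CPM (log2 fold change -0.72, SE 0.17, adjusted p 0.00907, not called without *xpo-1* RNAi replicate 1 or *xpo-1* RNAi replicate 2, with -0.77 to -0.68 and p 0.0773 to 0.0928), and the other 13 of 15 genes of mitochondrial folding and stress were not called.

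Oxidising and conjugating enzymes of detoxification rose more often than they fell, though glutathione S-transferases did so only among genes with like controls. Cytochrome P450 enzymes and UDP-glucuronosyltransferases oxidise and conjugate foreign and waste molecules. Of 51 P450 genes 16 rose and 2 fell (median 0.61). *cyp-33C8* went from 7.3 and 9.4 to 23.4 and 24.1 CPM (log2 fold change 1.5, SE 0.22, adjusted p 0.00102). *cyp-34A9* went from 8.85 and 5.86 to 34.1 and 33.5 CPM (log2 fold change 2.20, SE 0.24, adjusted p 0.000267). Of 53 transferases 14 rose and 2 fell, and *ugt-41* went from 3.86 and 2.83 to 12.2 and 18.7 CPM (log2 fold change 2.21, SE 0.30, adjusted p 0.000659). Members of both families have close copies, and reads may be shared between them. For P450 genes, rises numbered 5 without *xpo-1* RNAi replicate 1 and 4 without *xpo-1* RNAi replicate 2. For UDP-glucuronosyltransferases, rises numbered 6 without *xpo-1* RNAi replicate 1 and 3 without *xpo-1* RNAi replicate 2.

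Glutathione S-transferases rose in 6 and fell in 6 of 36 genes. Among the 21 with like controls 5 rose and 1 fell. *gst-24* went from 7.13 and 6.37 to 31.5 and 27.1 CPM (log2 fold change 2.12, SE 0.22, adjusted p 0.0002). *gst-26* went from 16.4 and 31.9 to 8.99 and 7.92 CPM (log2 fold change -1.52, SE 0.30, adjusted p 0.00443, not called without *xpo-1* RNAi replicate 2, with -1.43 and p 0.0687). ABC transporters, which export lipids and xenobiotics, rose in 14 of 46 and fell in 4, and 5 of the 8 *mrp* transporters were among the rises. The most abundant of them, *mrp-4*, went from 275 and 227 to 358 and 429 CPM (log2 fold change 0.65, SE 0.18, adjusted p 0.0237, not called without control replicate 2 or *xpo-1* RNAi replicate 2, with 0.48 to 0.51 and p 0.13 to 0.16). All 3 catalases, which break down hydrogen peroxide and stand next to each other in the genome, were called higher, and 1 of them without *xpo-1* RNAi replicate 2. *ctl-2* went from 35.1 and 36.3 to 76.7 and 72 CPM (log2 fold change 1.06, SE 0.16, adjusted p 0.00128). *ctl-1* went from 5.11 and 5.34 to 12.5 and 13.2 CPM (log2 fold change 1.30, SE 0.24, adjusted p 0.00298, not called without *xpo-1* RNAi replicate 2, with 1.26 and p 0.0762). *ctl-3* went from 11.9 and 12.1 to 18.1 and 18.6 CPM (log2 fold change 0.61, SE 0.21, adjusted p 0.0449, not called without control replicate 1, *xpo-1* RNAi replicate 1 or *xpo-1* RNAi replicate 2, with 0.56 to 0.63 and p 0.0306 to 0.287). *msra-1*, a methionine sulfoxide reductase, fell (from 49.4 and 56 to 19.6 and 21.7 CPM, log2 fold change -1.35, SE 0.18, adjusted p 0.000609). *fmo-2*, a flavin monooxygenase, went from 2.02 and 2.83 to 14 and 11.6 CPM (log2 fold change 2.39, SE 0.29, adjusted p 0.00037). Genes for metal handling included *mtl-1*, a metallothionein (from 63.2 and 36.9 to 169 and 135 CPM, log2 fold change 1.60, SE 0.24, adjusted p 0.00122), and *ftn-1*, a ferritin (from 29.8 and 14.4 to 98.8 and 87.2 CPM, log2 fold change 2.08, SE 0.29, adjusted p 0.000756), with 3 rises and no falls in 17 genes. For glutathione S-transferases, rises numbered 1 without *xpo-1* RNAi replicate 1 and 1 without *xpo-1* RNAi replicate 2. For glutathione S-transferases, falls numbered 0 without *xpo-1* RNAi replicate 2. For ABC transporters, rises numbered 5 without *xpo-1* RNAi replicate 1 and 0 without *xpo-1* RNAi replicate 2. For *mrp* transporters, rises numbered 0 without *xpo-1* RNAi replicate 2.

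Secreted and immune families rose in part. Transthyretin-related proteins, a nematode family of secreted proteins, rose in 18 of 48 and fell in 5 (median 0.54). *ttr-45* went from 150.1 and 116 to 455 and 384 CPM (log2 fold change 1.66, SE 0.19, adjusted p 0.00033). *ttr-51* went from 322 and 236 to 817 and 684 CPM (log2 fold change 1.43, SE 0.21, adjusted p 0.00099). *ttr-50* moved the other way (from 128 and 123 to 51.8 and 41.8 CPM, log2 fold change -1.42, SE 0.17, adjusted p 0.000381), so like controls were seen for changes in both directions. For transthyretin-related proteins, rises numbered 10 without *xpo-1* RNAi replicate 2. For transthyretin-related proteins, falls numbered 3 without control replicate 2, 2 without *xpo-1* RNAi replicate 1 and 2 without *xpo-1* RNAi replicate 2.

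C-type lectins, many of which respond to pathogens, rose in 19 and fell in 18 of 97. Among the 67 with like controls 16 rose and 8 fell. *clec-85* went from 83.1 and 72.3 to 245 and 172 CPM (log2 fold change 1.43, SE 0.20, adjusted p 0.000804). *clec-218* went from 5.46 and 4.88 to 23.7 and 27.6 CPM (log2 fold change 2.31, SE 0.23, adjusted p 0.00016). *clec-266* went from 90.6 and 80.1 to 24.5 and 21.5 CPM (log2 fold change -1.89, SE 0.18, adjusted p 0.000123). *clec-196* went from 12.1 and 12.6 to 3.42 and 2.19 CPM (log2 fold change -2.14, SE 0.29, adjusted p 0.000694). Genes named for responses to infection, DAF-16 and diet (*irg*, *thn*, *dod*, *abf* and *drd*) rose in 14 of 27 (median 0.97), with 3 of 10 among those with like controls. *dod-3* went from 67.2 and 33.6 to 235 and 181 CPM (log2 fold change 2.04, SE 0.29, adjusted p 0.000832). *abf-2*, an antibacterial peptide, went from 15.1 and 7.81 to 56.5 and 40.4 CPM (log2 fold change 2.08, SE 0.30, adjusted p 0.000918). The only fall was *drd-1* (from 15.6 and 16.9 to 4.65 and 4.66 CPM, log2 fold change -1.80, SE 0.23, adjusted p 0.000527). For C-type lectins, rises numbered 6 without *xpo-1* RNAi replicate 1 and 8 without *xpo-1* RNAi replicate 2. For C-type lectins, falls numbered 10 without control replicate 2 and 11 without *xpo-1* RNAi replicate 2. For infection, DAF-16 and diet genes, rises numbered 6 without *xpo-1* RNAi replicate 1 and 5 without *xpo-1* RNAi replicate 2.

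Antimicrobial peptides of the epidermis were divided, with 7 rises and 12 falls among 36. All 12 falls came from genes whose controls were 1.4-fold apart or more, as in *nlp-24* (from 75.8 and 148 to 12 and 10.6 CPM, log2 fold change -3.31, SE 0.30, adjusted p 0.000106). The caenacins *cnc-4* (from 13.8 and 8.73 to 27.5 and 24.6 CPM, log2 fold change 1.21, SE 0.25, adjusted p 0.00507) and *cnc-6* (from 5.29 and 3.9 to 11.7 and 11.9 CPM, log2 fold change 1.36, SE 0.26, adjusted p 0.00371, not called without *xpo-1* RNAi replicate 2, with 1.35 and p 0.0729) rose. Levels of cuticle genes, which share the epidermis as a source, moved with the falls, at summed levels of 37670 and 62670 CPM in the controls and 16560 and 14970 CPM under RNAi, and their part in the result was not tested. For epidermal peptides, rises numbered 3 without *xpo-1* RNAi replicate 1 and 4 without *xpo-1* RNAi replicate 2. For epidermal peptides, falls numbered 6 without control replicate 2 and 7 without *xpo-1* RNAi replicate 2.

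Transporters and channels of water, sugar and small solutes changed gene by gene. The sugar transporter *swt-1* went from 4.28 and 4.52 to 19.6 and 17.2 CPM (log2 fold change 2.06, SE 0.23, adjusted p 0.000296). *swt-6* went from 10.3 and 8.01 to 29.6 and 26 CPM (log2 fold change 1.61, SE 0.22, adjusted p 0.000702). The aquaporin *aqp-2* went from 102 and 128 to 31.8 and 28.4 CPM (log2 fold change -1.93, SE 0.18, adjusted p 0.000128). *aqp-7* went from 69.6 and 131 to 39.6 and 34.6 CPM (log2 fold change -1.44, SE 0.26, adjusted p 0.00298). Solute carriers as a whole were near all genes, with 11 rises and 13 falls among 99. The gap junction genes *inx-2* (from 43.8 and 41.1 to 20.5 and 18.8 CPM, log2 fold change -1.11, SE 0.18, adjusted p 0.00161) and *inx-3* (from 127 and 107 to 61.1 and 64.9 CPM, log2 fold change -0.90, SE 0.17, adjusted p 0.00313) fell. For solute carriers, rises numbered 19 without control replicate 2, 5 without *xpo-1* RNAi replicate 1 and 3 without *xpo-1* RNAi replicate 2. For solute carriers, falls numbered 23 without control replicate 1, 6 without *xpo-1* RNAi replicate 1 and 3 without *xpo-1* RNAi replicate 2.

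Cytosolic chaperones fell in 11 of 49 genes and rose in 1. *hsp-1* (WBGene00002005, chromosome IV, 17278959 to 17281330), the constitutive HSP70 of the cytosol, had 4027 and 4179 CPM in the control libraries and 1790 and 1531 CPM under *xpo-1* RNAi (log2 fold change -1.30, SE 0.21, adjusted p 0.00158). Of the 8 subunits of the chaperonin CCT, which folds actin and tubulin, 6 fell, as in *cct-8* (from 358 and 345 to 167 and 175 CPM, log2 fold change -1.04, SE 0.16, adjusted p 0.00137) and *cct-3* (from 252 and 264 to 112 and 140.1 CPM, log2 fold change -1.03, SE 0.17, adjusted p 0.00195). The controls of these 3 genes were 1.04-fold to 1.05-fold apart, and both silenced libraries stood below both of them. In the endoplasmic reticulum *hsp-3*, a BiP, went from 606 and 755 to 395 and 385 CPM (log2 fold change -0.80, SE 0.19, adjusted p 0.0092, not called without *xpo-1* RNAi replicate 2, with -0.78 and p 0.0662). *pdi-2*, a protein disulfide isomerase needed for collagen, went from 917 and 1425 to 610.4 and 570.1 CPM (log2 fold change -0.99, SE 0.23, adjusted p 0.0096, not called without control replicate 2 or *xpo-1* RNAi replicate 2, with -0.94 to -0.67 and p 0.0603 to 0.071). The stress reporter *hsp-4*, the other BiP, was at 321 and 312 CPM against 254 and 255 CPM (log2 fold change -0.32, SE 0.16, adjusted p 0.165), while the kinase *pek-1*, a sensor of unfolded proteins, rose (from 9.86 and 7.91 to 18.6 and 26 CPM, log2 fold change 1.33, SE 0.24, adjusted p 0.00305, not called without *xpo-1* RNAi replicate 2, with 1.07 and p 0.0807). For cytosolic chaperones, falls numbered 6 without *xpo-1* RNAi replicate 2. For CCT subunits, falls numbered 3 without *xpo-1* RNAi replicate 2.

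Of 33 proteasome subunits 1 was called, and the median was 0.11. Autophagy genes rose in 4 of 30 and fell in 1. *sqst-1*, the selective autophagy receptor p62, went from 52.8 and 51.7 to 92.1 and 95.7 CPM (log2 fold change 0.85, SE 0.16, adjusted p 0.00315). *atg-2*, which moves lipid to the growing autophagosome, went from 12.5 and 9.19 to 28.6 and 24 CPM (log2 fold change 1.28, SE 0.23, adjusted p 0.00267). *epg-2*, an adaptor for the removal of germ granule proteins in embryos, went from 16.3 and 13.8 to 5.32 and 6.19 CPM (log2 fold change -1.38, SE 0.24, adjusted p 0.00221). *lgg-1*, the ATG8 homologue on autophagosomes, was at 493 and 454 CPM in the controls and 656 and 577 CPM under RNAi (log2 fold change 0.38, SE 0.18, adjusted p 0.13). Subunits of the vacuolar ATPase, which acidifies lysosomes, fell in 7 of 21, as in *vha-12* (from 310.3 and 424 to 164 and 152 CPM, log2 fold change -1.22, SE 0.19, adjusted p 0.00142). *vha-7* rose (from 44.4 and 38.1 to 57 and 79.8 CPM, log2 fold change 0.73, SE 0.20, adjusted p 0.0199, not called without *xpo-1* RNAi replicate 2, with 0.47 and p 0.248). For vacuolar ATPase subunits, falls numbered 2 without control replicate 2, 2 without *xpo-1* RNAi replicate 1 and 2 without *xpo-1* RNAi replicate 2.

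Substrate adaptors of ubiquitin ligases separated by family. F-box proteins pick the targets of SCF ligases, in which SKP1-related (*skr*) proteins link the F-box to the cullin, and *bath* proteins pair a MATH with a BTB domain and serve cullin 3. Of 68 *fbxb* genes 42 fell and none rose (median -1.64), and 31 of the 46 with like controls fell. Of 78 *fbxa* genes 18 rose and 4 fell (median 0.55). The 29 *fbxc* genes gave 1 rise and 11 falls. The *fbxb* genes were expressed at low levels, with a median of 1.28 CPM in the controls, and their summed level went from 116 and 96.5 CPM in the controls to 39.9 and 43.6 CPM under RNAi. Of the 68, 40 lie on chromosome II, many are close copies, and reads may be shared between them. These 3 subfamilies were set against each other after their values had been seen. Of the 68 *fbxb* genes, 42 met the count filter without control replicate 1 and 41 without control replicate 2. All 68 met it without *xpo-1* RNAi replicate 1. Many members thus entered only through the control libraries, and such members could hardly show anything but a fall. The number of falls and the median of this family are therefore in part set by the filter. Some *fbxa* genes entered the other way, as 67 of the 78 met the filter without *xpo-1* RNAi replicate 1. For *fbxb* genes, falls numbered 27 without control replicate 1, 13 without *xpo-1* RNAi replicate 1 and 3 without *xpo-1* RNAi replicate 2. For *fbxa* genes, rises numbered 6 without *xpo-1* RNAi replicate 1 and 3 without *xpo-1* RNAi replicate 2. For *fbxc* genes, falls numbered 1 without *xpo-1* RNAi replicate 1 and 4 without *xpo-1* RNAi replicate 2.

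Members at higher levels were seen in the other subfamilies. *fbxc-51* (WBGene00021576, chromosome II, 868814 to 871699) had 47.2 and 48.3 CPM in the control libraries and 11.7 and 9.74 CPM under *xpo-1* RNAi (log2 fold change -2.16, SE 0.20, adjusted p 0.000108). *fbxa-95*, whose exons overlap *fbxa-94*, went from 24.4 and 20.6 to 64.4 and 54.2 CPM (log2 fold change 1.4, SE 0.19, adjusted p 0.000609). Of 19 *skr* genes 8 fell and 1 rose. *skr-9* went from 20.6 and 16.1 to 4.34 and 2.39 CPM (log2 fold change -2.46, SE 0.31, adjusted p 0.000476). *skr-21* went from 26.1 and 21.8 to 4.7 and 5.69 CPM (log2 fold change -2.20, SE 0.23, adjusted p 0.000235). *skr-10* went from 19 and 17.6 to 4.8 and 5.2 CPM (log2 fold change -1.87, SE 0.23, adjusted p 0.000396). The rise was that of *skr-4* (from 9.92 and 10 to 23.4 and 21.6 CPM, log2 fold change 1.17, SE 0.21, adjusted p 0.0024). Of 33 *bath* genes 11 rose and 3 fell, with *bath-30* at 48.5 and 44.6 CPM in the controls and 83.8 and 81 CPM under RNAi (log2 fold change 0.82, SE 0.16, adjusted p 0.004). For *skr* genes, falls numbered 4 without *xpo-1* RNAi replicate 2. For *bath* genes, rises numbered 1 without *xpo-1* RNAi replicate 1 and 1 without *xpo-1* RNAi replicate 2.

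**Figure D4:**
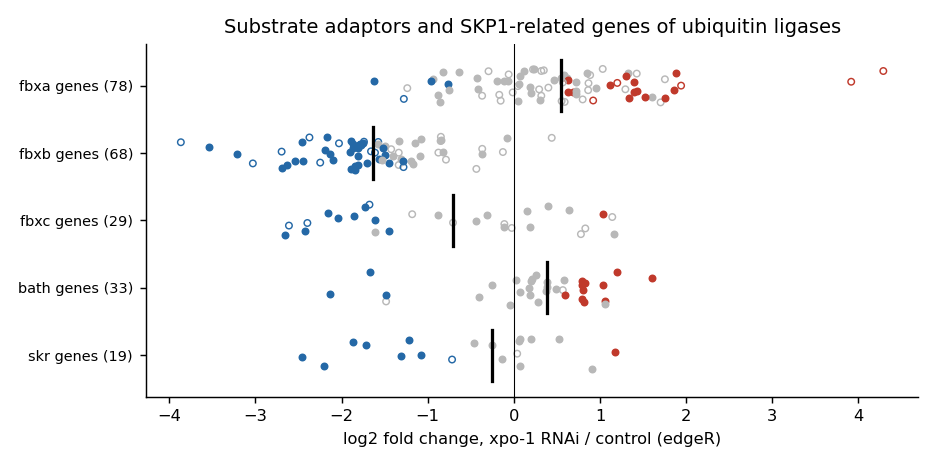
Log2 fold change (*xpo-1* RNAi over control, edgeR) of each tested member of the *fbxa*, *fbxb*, *fbxc*, *bath* and *skr* genes, with the median as a black bar. Red is called higher, blue called lower, grey not called, and open points have controls 1.4-fold apart or more. The bar of the *fbxb* genes lies at -1.64 and that of the *fbxa* genes at 0.55.

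Linker histones, which bind the DNA between nucleosomes and compact chromatin, fell in 6 of 9 tested genes and rose in 1. *his-24* (WBGene00001898, chromosome X, 14490094 to 14491115), the linker histone H1.1, had 409.7 and 474 CPM in the control libraries and 53.7 and 46.4 CPM under *xpo-1* RNAi (log2 fold change -3.14, SE 0.19, adjusted p 6.91e-05). *hil-2* had 221 and 235 CPM in the control libraries and 37.6 and 31.8 CPM under *xpo-1* RNAi (log2 fold change -2.72, SE 0.17, adjusted p 6.91e-05). *hil-3* had 81.5 and 90.9 CPM in the control libraries and 16 and 13.4 CPM under *xpo-1* RNAi (log2 fold change -2.56, SE 0.19, adjusted p 6.91e-05). The controls of these 3 genes were 1.06-fold to 1.16-fold apart, and the silenced means were 11.3%, 15.2% and 17% of the control means. The more abundant *hil-5* went from 915 and 840.5 to 273 and 212 CPM (log2 fold change -1.85, SE 0.20, adjusted p 0.000235). *hil-4* went from 1171 and 1022 to 706 and 547 CPM (log2 fold change -0.81, SE 0.20, adjusted p 0.0134, not called without *xpo-1* RNAi replicate 2, with -0.63 and p 0.102), and *hil-7* went from 29.5 and 34.7 to 4.34 and 4.21 CPM (log2 fold change -2.91, SE 0.22, adjusted p 6.91e-05). *hil-1* moved the other way (from 8.97 and 7.4 to 31.4 and 28.1 CPM, log2 fold change 1.86, SE 0.21, adjusted p 0.00032). Core histones, whose transcripts mostly lack a poly(A) tail and are near-identical within each type, were not described one by one.

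Among nuclear transport receptors and Ran pathway genes, *xpo-1* aside, 1 rose and 1 fell of the other 17. *ima-3*, an importin alpha, went from 308 and 326 to 185 and 166 CPM (log2 fold change -0.86, SE 0.17, adjusted p 0.00392, not called without *xpo-1* RNAi replicate 2, with -0.78 and p 0.0506). *ima-1*, of the same family, went from 35.3 and 28.3 to 42.9 and 53.7 CPM (log2 fold change 0.60, SE 0.20, adjusted p 0.0395, not called without control replicate 2, *xpo-1* RNAi replicate 1 or *xpo-1* RNAi replicate 2, with 0.42 to 0.75 and p 0.075 to 0.333). Of 26 nuclear pore genes 3 rose and 1 fell, the fall being *npp-25* (from 63.6 and 59.8 to 33.9 and 35.3 CPM, log2 fold change -0.83, SE 0.17, adjusted p 0.00443, not called without *xpo-1* RNAi replicate 2, with -0.86 and p 0.0529). Without control replicate 2 no nuclear pore gene rose.

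Nucleolar genes fell in a share near that of all genes, and the falls among splicing genes lay in the Sm proteins. Of 38 nucleolar and ribosome assembly genes 6 fell and 1 rose (median -0.08), against 16.9% falls over all genes. *fib-1*, the methyltransferase fibrillarin, went from 1939 and 2078 to 949.8 and 752 CPM (log2 fold change -1.24, SE 0.21, adjusted p 0.00178). Its partner *nol-56* went from 532 and 562 to 273 and 222 CPM (log2 fold change -1.15, SE 0.18, adjusted p 0.00142). *dao-5*, a nucleolar phosphoprotein, went from 231 and 203 to 113 and 118 CPM (log2 fold change -0.91, SE 0.16, adjusted p 0.00263). All 7 Sm proteins (*snr-1* to *snr-7*), which form the ring around spliceosomal snRNAs, fell, as in *snr-3* (from 313 and 292 to 172 and 127 CPM, log2 fold change -1.02, SE 0.19, adjusted p 0.00321), and the other 32 genes of the spliceosome list gave 1 rise and no fall. The 3 *taf-11* paralogs, which encode a subunit of the general factor TFIID, did not move together. *taf-11.1* went from 38.8 and 36.2 to 18.5 and 15.9 CPM (log2 fold change -1.12, SE 0.19, adjusted p 0.00193). *taf-11.2* went from 15 and 12.2 to 27.3 and 31.1 CPM (log2 fold change 1.10, SE 0.21, adjusted p 0.00342, not called without *xpo-1* RNAi replicate 2, with 1.01 and p 0.0678). For nucleolar genes, falls numbered 3 without *xpo-1* RNAi replicate 1 and 3 without *xpo-1* RNAi replicate 2. For Sm proteins, falls numbered 1 without *xpo-1* RNAi replicate 2.

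Translation factors fell in 17 of 43 and rose in 1 (median -0.51). The elongation factor *eef-1A.1*, the gene with the most counts in the controls, went from 15780 and 15990 to 9431 and 7343 CPM (log2 fold change -0.92, SE 0.25, adjusted p 0.0197, not called without control replicate 1, control replicate 2 or *xpo-1* RNAi replicate 2, with -0.97 to -0.75 and p 0.0828 to 0.225). *eef-1B.1*, of its exchange factor, went from 2234 and 2177 to 1069 and 886 CPM (log2 fold change -1.18, SE 0.20, adjusted p 0.00211). *eif-3.I*, of initiation factor eIF3, went from 346 and 326 to 179 and 153 CPM (log2 fold change -1.02, SE 0.17, adjusted p 0.00182). The controls of these 3 genes were 1.01-fold to 1.06-fold apart and lay above both silenced libraries. *ifet-1*, a translational repressor of the germ line, fell as well (from 593 and 571 to 259 and 286 CPM, log2 fold change -1.10, SE 0.17, adjusted p 0.00137). The only rise was *efk-1*, the kinase that inhibits eEF2 (from 60.1 and 45.5 to 77.1 and 94.1 CPM, log2 fold change 0.70, SE 0.19, adjusted p 0.0197, not called without control replicate 2 or *xpo-1* RNAi replicate 2, with 0.48 to 0.55 and p 0.055 to 0.183). *vig-1*, an RNA-binding protein, went from 4921 and 5176 to 2478 and 2118 CPM (log2 fold change -1.14, SE 0.22, adjusted p 0.00364). For translation factors, falls numbered 6 without *xpo-1* RNAi replicate 2.

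Most germline lists stood near all genes, with a few deep falls. Of 23 germ granule genes 3 fell and none rose. *car-1* (WBGene00012484, chromosome I, 12904470 to 12906212), an RNA-binding protein of germ granules and P bodies, had 2448 and 2341 CPM in the control libraries and 820.4 and 673 CPM under *xpo-1* RNAi (log2 fold change -1.68, SE 0.21, adjusted p 0.000395), and *cgh-1*, the helicase that works with it, 1669 and 1464 CPM in the control libraries and 866 and 862 CPM under *xpo-1* RNAi (log2 fold change -0.86, SE 0.19, adjusted p 0.00766). Both silenced libraries were below both controls in the 2 genes. Of 36 oocyte and maternal RNA-binding proteins 5 fell, as in the Y-box proteins *cey-2* (from 3063 and 2791 to 1418 and 1121 CPM, log2 fold change -1.21, SE 0.21, adjusted p 0.00253) and *cey-3* (from 1415 and 1141 to 734 and 569 CPM, log2 fold change -0.97, SE 0.21, adjusted p 0.0069, not called without *xpo-1* RNAi replicate 2, with -0.80 and p 0.0599), with a median of 0.04. *fbf-2*, a PUF protein that keeps germline stem cells, fell (from 20.6 and 20.8 to 9.86 and 9.08 CPM, log2 fold change -1.12, SE 0.21, adjusted p 0.0032, not called without *xpo-1* RNAi replicate 2, with -1.06 and p 0.0722). Argonautes fell in 7 of 19, and 4 of 16 with like controls. *alg-1*, the microRNA Argonaute, went from 51.5 and 62 to 19.9 and 23.6 CPM (log2 fold change -1.38, SE 0.19, adjusted p 0.000696). *ppw-2*, of the germline small RNA pathways, went from 195 and 180.2 to 98.3 and 86.2 CPM (log2 fold change -1.02, SE 0.16, adjusted p 0.00145). For oocyte RNA-binding proteins, falls numbered 2 without *xpo-1* RNAi replicate 2. For Argonautes, falls numbered 3 without *xpo-1* RNAi replicate 2.

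Meiosis genes fell in 4 of 39 (median -0.002). They gave 3 rises and 2 falls without control replicate 1, 7 falls without control replicate 2, 1 without *xpo-1* RNAi replicate 1 and none without *xpo-1* RNAi replicate 2. Eggshell genes, made by oocytes, gave 1 call in 18, the rise of *perm-4*, of the permeability barrier (from 1996 and 1832 to 4061 and 3214 CPM, log2 fold change 0.93, SE 0.22, adjusted p 0.0101, not called without control replicate 1 or control replicate 2, with 0.83 to 0.95 and p 0.074 to 0.152). The abundant eggshell proteoglycans were not called, with *cpg-2* at 6157 and 5029 CPM against 8827 and 7182 CPM (log2 fold change 0.52, SE 0.24, adjusted p 0.129) and *cpg-1* at 4029 and 3117 CPM against 3839 and 3227 CPM (log2 fold change -0.02, SE 0.23, adjusted p 0.964). DNA replication genes rose in 4 of 35 and fell in none, with 8 rises without control replicate 1 and 1 rise and 2 falls without control replicate 2. Among the rises was *rfc-1*, which loads the sliding clamp (from 77.8 and 58.4 to 122 and 122 CPM, log2 fold change 0.84, SE 0.18, adjusted p 0.00647). The phosphatase *cdc-25.2*, which starts oocyte maturation, fell (from 107 and 97.4 to 57.7 and 52.1 CPM, log2 fold change -0.90, SE 0.16, adjusted p 0.00278). Embryonic genes included *glp-1*, the germline Notch receptor, which rose (from 68.4 and 47.1 to 108 and 109 CPM, log2 fold change 0.91, SE 0.20, adjusted p 0.0067), and of 24 listed 2 rose and 8 fell. For early embryo genes, falls numbered 5 without *xpo-1* RNAi replicate 2.

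Of 87 neuropeptide genes 7 rose and none fell (median 0.21), against 12% rises and 16.9% falls over all genes. Without control replicate 1, 3 fell. *flp-6* went from 20.7 and 19.1 to 51.3 and 55.5 CPM (log2 fold change 1.43, SE 0.18, adjusted p 0.000427). *flp-18* went from 15.1 and 17.1 to 24.7 and 29.1 CPM (log2 fold change 0.74, SE 0.20, adjusted p 0.0193, not called without *xpo-1* RNAi replicate 1 or *xpo-1* RNAi replicate 2, with 0.62 to 0.85 and p 0.0791 to 0.228). Synaptic and pan-neuronal genes gave 4 rises and 1 fall in 29, the fall being *unc-33*, which guides axons (from 134 and 135 to 86.1 and 82.1 CPM, log2 fold change -0.68, SE 0.16, adjusted p 0.00878, not called without *xpo-1* RNAi replicate 2, with -0.64 and p 0.0865). The octopamine pathway, which is active in neurons and in the gonadal sheath, rose at both steps. *tbh-1*, the last enzyme, went from 129.7 and 129 to 229.7 and 217 CPM (log2 fold change 0.79, SE 0.16, adjusted p 0.00468). *tdc-1*, the first, went from 368 and 271 to 497 and 465 CPM (log2 fold change 0.59, SE 0.19, adjusted p 0.0421, not called without control replicate 2, *xpo-1* RNAi replicate 1 or *xpo-1* RNAi replicate 2, with 0.35 to 0.64 and p 0.11 to 0.318). For neuropeptide genes, rises numbered 11 without control replicate 1, 11 without control replicate 2, 1 without *xpo-1* RNAi replicate 1 and 2 without *xpo-1* RNAi replicate 2.

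Some receptors at low levels rose. Of 29 tested chemoreceptor genes 9 rose and 2 fell (median 0.61), with 10 of like controls, of which 1 rose and 2 fell. Of 11 tested *gcy* genes, which encode guanylyl cyclases of sensory neurons, 6 rose and none fell. Without either *xpo-1* RNAi library only 6 of the 11 met the count filter. The others entered only through the silenced libraries and could hardly show anything but a rise. *gcy-19* went from 2.32 and 3.13 to 16.1 and 16.6 CPM (log2 fold change 2.58, SE 0.26, adjusted p 0.000205). *ser-4*, a serotonin receptor, went from 3.38 and 3.9 to 17.3 and 15.6 CPM (log2 fold change 2.17, SE 0.25, adjusted p 0.000293). *sri-40* (WBGene00005552, chromosome II, 3177963 to 3180476), of a chemoreceptor family, was the deepest fall among named genes with like controls, at 20.6 and 25.8 CPM in the control libraries and 1.23 and 1.53 CPM under *xpo-1* RNAi (log2 fold change -4.06, SE 0.28, adjusted p 6.91e-05). For chemoreceptors, rises numbered 1 without *xpo-1* RNAi replicate 1 and 0 without *xpo-1* RNAi replicate 2. For *gcy* genes, rises numbered 2 without *xpo-1* RNAi replicate 1 and 2 without *xpo-1* RNAi replicate 2.

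Body wall muscle genes fell in 25 of 46 and rose in none (median -0.75), from controls that differed. Control replicate 2 was above control replicate 1 in 42 of the 46, with a median ratio of 1.67. Without control replicate 2, 14 fell (median -0.36), and of the 10 genes with like controls 4 fell. *unc-54*, the major myosin of body wall muscle, went from 614 and 1201 to 439.5 and 558 CPM (log2 fold change -0.86, SE 0.29, adjusted p 0.044, not called without control replicate 2, *xpo-1* RNAi replicate 1 or *xpo-1* RNAi replicate 2, with -1.05 to -0.34 and p 0.0976 to 0.361). *mup-2*, a troponin T, went from 238 and 509.9 to 128 and 126 CPM (log2 fold change -1.56, SE 0.30, adjusted p 0.00353). *unc-52*, the perlecan under muscle, went from 90.7 and 214 to 29.7 and 39.2 CPM (log2 fold change -2.14, SE 0.34, adjusted p 0.00138). Control replicate 2 was 1.96-fold, 2.14-fold and 2.36-fold above control replicate 1 in these genes, and the silenced libraries lay below both. For muscle genes, falls numbered 38 without control replicate 1, 14 without control replicate 2, 13 without *xpo-1* RNAi replicate 1 and 7 without *xpo-1* RNAi replicate 2.

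Pharyngeal genes fell in 15 of 21, and rose in 1. Of the 4 with like controls 2 fell and 1 rose. Without control replicate 2, 6 fell of the 12 that could be tested. Basement membrane genes fell in 9 of 25, and 5 of 12 with like controls, as in the laminin *lam-2* (from 19.7 and 25.2 to 9.71 and 12.2 CPM, log2 fold change -1.03, SE 0.23, adjusted p 0.00784, not called without *xpo-1* RNAi replicate 1 or *xpo-1* RNAi replicate 2, with -1.21 to -0.88 and p 0.0562 to 0.104). Larval and molting markers fell in 9 and rose in 2 of 24, with summed levels of 377 and 526 CPM in the controls and 242 and 279 CPM under RNAi, and none of the 26 was at 0 in all 4 libraries. *mlt-10* went from 17.1 and 38 to 3.78 and 3.34 CPM (log2 fold change -2.95, SE 0.36, adjusted p 0.000383). Sperm genes had summed levels of 849.8 and 3244 CPM in the controls and 212.8 and 222.5 CPM under RNAi. Both lists were highest in control replicate 2, as were the muscle and pharyngeal genes, and the part of larvae or of sperm in these results was not tested. For pharyngeal genes, falls numbered 9 without control replicate 1, 6 without control replicate 2 and 9 without *xpo-1* RNAi replicate 2. For basement membrane genes, falls numbered 16 without control replicate 1, 1 without *xpo-1* RNAi replicate 1 and 3 without *xpo-1* RNAi replicate 2. For larval markers, falls numbered 16 without control replicate 1.

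Tubulins gave 1 rise and 4 falls in 13. *tbb-6*, a beta-tubulin low in the controls, went from 2.02 and 2.41 to 11.4 and 15.1 CPM (log2 fold change 2.58, SE 0.29, adjusted p 0.000282). The abundant *tbb-1* went from 1319 and 1324 to 934 and 723 CPM (log2 fold change -0.67, SE 0.20, adjusted p 0.0286, not called without control replicate 1, control replicate 2 or *xpo-1* RNAi replicate 2, with -0.71 to -0.50 and p 0.0586 to 0.179). Motor genes included *dnc-1*, the dynactin subunit p150, which rose (from 28 and 20.8 to 52 and 47.2 CPM, log2 fold change 1.02, SE 0.20, adjusted p 0.00392).

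Signalling lists held a few rises each, to be read against 12% rises and 16.9% falls over all genes. The share of rises in the TGF-beta and Wnt list was near that of all genes, and 1 of its genes fell. In insulin signalling 5 of 22 rose and 2 fell. *aap-1*, the adaptor of phosphoinositide 3-kinase, went from 45.1 and 38.1 to 74.9 and 85.4 CPM (log2 fold change 0.95, SE 0.17, adjusted p 0.00294). *akt-2*, a kinase below it, went from 8.2 and 7.5 to 18.6 and 17 CPM (log2 fold change 1.18, SE 0.22, adjusted p 0.00329, not called without *xpo-1* RNAi replicate 1 or *xpo-1* RNAi replicate 2, with 1.10 to 1.24 and p 0.0501 to 0.0551). Stress kinase genes rose in 5 of 25 and none fell. They included *cebp-1*, a bZIP factor (from 16.9 and 19.7 to 40.4 and 39.3 CPM, log2 fold change 1.12, SE 0.19, adjusted p 0.00179), and *tir-1*, the adaptor at the top of p38 signalling (from 6.06 and 8.06 to 13.1 and 16.4 CPM, log2 fold change 1.06, SE 0.25, adjusted p 0.0103, not called without *xpo-1* RNAi replicate 2, with 0.90 and p 0.184). In TGF-beta and Wnt signalling 4 of 33 rose, with *sma-10* (from 4.39 and 3.96 to 9.91 and 11.1 CPM, log2 fold change 1.33, SE 0.26, adjusted p 0.0038, not called without *xpo-1* RNAi replicate 2, with 1.25 and p 0.097) and *sma-4*, a SMAD (from 5.7 and 6.37 to 11.9 and 15.3 CPM, log2 fold change 1.17, SE 0.25, adjusted p 0.00596, not called without *xpo-1* RNAi replicate 2, with 0.98 and p 0.15), of the body size pathway. For insulin signalling genes, rises numbered 3 without *xpo-1* RNAi replicate 1 and 1 without *xpo-1* RNAi replicate 2. For stress kinase genes, rises numbered 2 without *xpo-1* RNAi replicate 1 and 1 without *xpo-1* RNAi replicate 2.

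Transcription factors differed by class. Nuclear hormone receptors rose in 17 and fell in 5 of 167 (median 0.19), against 12% rises and 16.9% falls over all genes. Their share of rises was thus not above that of all genes. *nhr-17* was at 6.47 and 5.75 CPM in the controls and 21.7 and 21.3 CPM under RNAi (log2 fold change 1.82, SE 0.22, adjusted p 0.000382). *sex-1*, a receptor that counts X chromosomes in the embryo, fell (from 25.5 and 24.4 to 13.5 and 14.7 CPM, log2 fold change -0.82, SE 0.20, adjusted p 0.0108, not called without *xpo-1* RNAi replicate 1 or *xpo-1* RNAi replicate 2, with -0.88 to -0.77 and p 0.0994 to 0.123). Homeodomain factors, most of them regulators of embryonic and neuronal cell fate, fell in 19 of 60 and rose in 1 (median -0.50). *ceh-43*, of the Distal-less class, went from 20.1 and 18.2 to 4.86 and 4.83 CPM (log2 fold change -1.98, SE 0.23, adjusted p 0.000315). *ceh-32*, of another class, went from 11 and 10.8 to 1.23 and 2.35 CPM (log2 fold change -2.59, SE 0.34, adjusted p 0.000551). Both stood below 5 CPM in each silenced library. *pqm-1*, a zinc finger factor of intestinal stress and lipid genes, rose (from 11.3 and 10.3 to 26.8 and 25.6 CPM, log2 fold change 1.28, SE 0.20, adjusted p 0.00139). For nuclear hormone receptors, rises numbered 31 without control replicate 2, 4 without *xpo-1* RNAi replicate 1 and 1 without *xpo-1* RNAi replicate 2. For nuclear hormone receptors, falls numbered 15 without control replicate 1, 8 without control replicate 2, 1 without *xpo-1* RNAi replicate 1 and 1 without *xpo-1* RNAi replicate 2. For homeodomain factors, falls numbered 11 without control replicate 2, 7 without *xpo-1* RNAi replicate 1 and 7 without *xpo-1* RNAi replicate 2.

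Among genes with like controls and at least 10 CPM in the higher group, the largest rises outside the lists set aside included genes of little known function. C39F7.5 went from 5.17 and 4.21 to 29.6 and 33.1 CPM (log2 fold change 2.74, SE 0.23, adjusted p 8.25e-05). *pqn-75* went from 13.4 and 13.8 to 61.6 and 60.4 CPM (log2 fold change 2.17, SE 0.18, adjusted p 8.18e-05). F45D3.4 went from 55.3 and 39.8 to 208 and 214 CPM (log2 fold change 2.15, SE 0.19, adjusted p 0.000106). In all 3 the silenced libraries lay close together and well above both controls. *cfap-36*, named for cilia, went from 3.62 and 3.7 to 17.3 and 14.8 CPM (log2 fold change 2.13, SE 0.25, adjusted p 0.000315). The largest falls by the same limits, beside *sri-40*, the linker histones and *hsp-60*, included Y71A12B.11 (from 16.4 and 17.6 to 1.84 and 2.31 CPM, log2 fold change -3.03, SE 0.26, adjusted p 9.1e-05) and C05D9.12 (from 15 and 15.2 to 2.81 and 1.73 CPM, log2 fold change -2.74, SE 0.30, adjusted p 0.000246).

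Calls were not spread evenly over the chromosomes. Chromosome V had the largest share of rises, 15.6% of 2586 genes, and 14.2% falls. On the X chromosome, whose genes are silent in much of the germ line, 8.36% of 1949 genes rose and 18.2% fell (median -0.14). Among genes with like controls the shares were 16.1% rises and 9.2% falls on V, and 9.98% and 12.8% on X. Without the lists set aside they were 15.8% and 12.9% on V and 8.40% and 17% on X. The other autosomes had 10.3% to 13.6% rises and 14.1% to 20.3% falls. Of 395 pseudogenes 28 rose and 88 fell, against 1599 and 2219 of 13220 protein-coding genes.

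Exons of some genes named above overlap those of a neighbour, and because the strand setting of the counting is not given, reads of such a pair cannot be told apart. These genes are *ND1*, *aap-1*, *acdh-1*, *alg-1*, *alh-8*, *asp-4*, *ceh-32*, *cpz-2*, *ctl-2*, *cyp-34A9*, *dao-5*, *dnc-1*, *eef-1A.1*, *eef-1B.1*, *epg-2*, *fat-5*, *fat-6*, *glp-1*, *his-24*, *ima-3*, *inx-3*, *lys-8*, *mlt-10*, *mrp-4*, *msra-1*, *nlp-24*, *pcca-1*, *pdi-2*, *pqm-1*, *sams-1*, *sams-4*, *snr-3*, *swt-6*, *tbh-1*, *tdc-1*, *ttr-50*, *ttr-51*, *unc-52*, *vig-1*, *vit-6* and *xpo-1*.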

How the data were processed

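Whole-animal RNA of wild-type *C. elegans* was sequenced in 11 libraries of total, monosomal and polysomal RNA, of which the 4 of total RNA are compared here. Per the labels and the study's methods, reads were trimmed with Trimmomatic and aligned to WBcel235 with STAR, and the deposited values are raw read counts per gene from featureCounts (Subread). Versions, the strand setting and the treatment of reads shared by several genes are not given in the sources used here. Adults were parted from progeny by settling at each transfer.

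Counts were tested with edgeR 4.0.16 (quasi-likelihood F test, TMM scaling, R 4.3.3), 2 libraries against 2, over genes with at least 10 counts in at least 2 of the 4 libraries. P-values are two-sided and were adjusted by Benjamini-Hochberg over all 13795 genes, and every adjusted p in the text is of this test. In the wording used, a p given after "not called without" is the adjusted p of the fit lacking that library. The standard error is the log2 fold change over the square root of F. Depth was 18356260 to 21828657 counts, so genes of a few CPM rest on few counts. Symbols were matched for 43798 of 46756 gene IDs, and biotypes were taken from Ensembl release 115. Like controls means TMM-scaled CPM under 1.4-fold apart in the 2 control libraries, a choice that uses the control spread. The edgeR fit was run on simulated counts with known changes. No library was made to stand apart in them, so the simulation does not bear on the difference between the 2 controls.

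The comparison, the lists and the naming rule were chosen with earlier results of these data known. The rule named *xpo-1*, the 10 most abundant genes outside ribosomal proteins, the 12 largest changes in each direction among called genes with like controls and at least 10 CPM in the higher group, and up to 3 called members per list and direction. The patterns of some lists were corrected, and both propionate lists added, after values had been seen. Also chosen after their values were seen were *ahcy-1*, *alh-8*, COX3, *fat-7*, *hacd-1*, *hach-1*, *hil-4*, *hil-5*, *hsp-4*, *hsp-6*, *lgg-1*, *lys-8*, *metr-1*, *mrp-4*, ND1, *nhr-68*, *pcca-1*, *pmt-1*, *pmt-2*, *pqm-1*, *sams-4*, *unc-54* and the families given by symbol (*acdh*, *bath*, *cct*, *cox*, *fat*, *fbxa*, *fbxb*, *fbxc*, *gcy*, *mrp*, *skr*, Sm proteins, linker histones and *taf-11*). Alternatives were other scalings, DESeq2 1.42.0, other count filters, a fit of all 11 libraries, a replicate block and leaving out each library. A planned search of promoters for motifs was not run, since no promoter sequences were used here.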

Additional observations from a re-analysis of the deposited data

How the results depend on the processing

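No called gene named in the text changed direction under an alternative. Genes near 0 that were not called did, among them *cpg-1* at 0.15 without control replicate 1 and -0.22 without control replicate 2. Relative log expression factors, DESeq2, both count filters and the fit of all 11 libraries kept the 4 counts of calls within 1.5 times of the values given, at 1283 to 1884 higher and 1844 to 2984 lower in all genes. Scaling by total counts gave 3309 higher in all genes, 2578 higher and 611 lower in genes with like controls, with the median of all genes at 0.30 in place of 0.01. With 1 library left out, calls ranged from 379 to 2129 higher and 977 to 2597 lower in all genes, and from 284 to 1528 higher and 337 to 1324 lower in genes with like controls. The fewest of each came without *xpo-1* RNAi replicate 2. Requiring controls under 1.2-fold apart left 711 higher calls, with fewer genes counted. Calls made in the full fit and in every alternative numbered 300 higher and 476 lower.

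The labels do not say whether libraries of the same replicate number were handled together. The difference between replicates 1 and 2 correlated at r = 0.07 between the groups over 13795 genes. This cannot decide on pairing, since each group gave a single difference and control replicate 2 stood apart in many genes. A replicate block gave 1978 higher and 2671 lower calls, 1647 and 2335 of them shared with the fit without it. Genes of a few CPM and members of near-identical families limit what can be read at this depth, and 2 libraries a group give little information on the spread.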

Other observations

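The polysomal and monosomal libraries enter no comparison above. Of the 222 called genes followed there, 195 had polysomal levels that moved the same way without overlap of the groups and 4 the opposite way, as a description without a test. In monosomal RNA, with 1 *xpo-1* RNAi library, 181 lay on the same side of the controls and 24 on the opposite side. The same shares over all genes were not counted in these fractions. The genes followed were taken for their calls in total RNA, so these counts are no independent support.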
